A study of Mus musculus with 14 samples.

Results

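Resident mast cells sorted from the ears of untreated mice and of mice treated with MC903 were compared over all genes, with 5 libraries a side, which makes 10 of the 14 libraries of the series. The libraries were chosen by their labels alone: libraries 1 to 5 are labelled as resident mast cells of untreated (nt) mice and libraries 6 to 10 as resident mast cells of MC903-treated mice. MC903 (calcipotriol) is an analogue of vitamin D that produces a dermatitis resembling atopic dermatitis when applied to mouse skin. Each library held at most 100 cells taken from both ears, so a library is a small pool and not a single cell. Both groups went through the same sorting, full-length complementary DNA amplification (SMART-Seq HT) and Nextera XT library steps. The strain, sex and age of the mice, the dose and the duration of MC903 and the vehicle are not given in the sources used here. The comparison is therefore between treated and untreated mice, not between MC903 and its vehicle. The labels name no animal, so p-values measure the spread between these libraries, which may be partly technical.

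Connective tissue mast cells of the skin store histamine, serotonin, heparin and proteases in granules, and they carry the high-affinity IgE receptor and the stem cell factor receptor KIT. Crosslinking of receptor-bound IgE starts a kinase cascade that releases the granules, and it also switches on transcription through calcium and NFAT, through AP-1 and through NF-kappa B, which yields cytokines and chemokines hours later. NF-kappa B proteins are held in the cytoplasm by inhibitory I-kappa B proteins, and several genes that NF-kappa B switches on, among them those of I-kappa B alpha and A20, restrain it in turn. Immediate early genes such as Fos, Egr1 and the Nr4a receptors respond within minutes to signals of this kind and also to tissue digestion and cell sorting.

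Total counts ran from 13068078 to 27068993 a library. Genes with at least 1 count numbered 21874 to 25244 in the untreated libraries and 22632 to 35246 in the MC903 libraries, and libraries 7 and 8 had both the most genes and the lowest totals. On the first principal component of the 500 most variable genes (31.3% of their variance) the untreated libraries lay at -36.1 to -15.4 and the MC903 libraries at -4.34 to 52.8, with library 10 nearest the untreated ones. The mast cell identity of both groups was checked on 20 core mast cell markers, all of which were tested. Their summed level was 99689 to 127512 CPM in the untreated and 115668 to 174593 CPM in the MC903 libraries, a sum made mostly of a few proteases. Of the 20 markers 12 had a negative log2 fold change (median -0.35, against 0.24 over all genes), and 4 were called higher and 3 lower. CPM is the usual depth-scaled read count, computed here over the counts in tested genes with scaling by trimmed mean of M-values (TMM). Among 89 tested markers of other cell types the edgeR fit over 14 libraries called none (16 had an unadjusted p under 0.05, and DESeq2 called 3 and limma with quality weights 4). With only the 10 resident libraries in the fit, edgeR called 1 macrophage and dendritic cell marker higher and 1 B cell marker lower. It called 1 basophil and eosinophil marker higher with TMM from abundant genes, 1 B cell marker lower with a length offset, and up to 1 fibroblast and 1 B cell marker lower without 1 library. Summed keratinocyte markers (9 of 21 tested) stood at 2.46 to 9.81 CPM untreated and 4.77 to 29.9 CPM with MC903, and neutrophil markers (4 of 16 tested) at 0.849 to 11.5 and 1.65 to 14.1 CPM. Macrophage and dendritic cell markers stood at 67.2 to 173 and 77.4 to 196 CPM, and T and innate lymphoid cell markers at 78.3 to 136 and 76.5 to 187 CPM. Endothelial, nerve and pigment cell markers stood at 29.5 to 47.4 and 40.6 to 85.8 CPM. Most tested members of several of these lists had a positive log2 fold change, namely 15 of 17 T and innate lymphoid cell markers (median 1.43), 12 of 14 endothelial, nerve and pigment cell markers (1.51), 9 of 9 keratinocyte markers (1.10), 6 of 7 B cell markers (1.197) and 9 of 13 fibroblast markers (1.15), against a median of 0.24 over all genes. These medians were, without libraries 7 and 8, 0.69, 0.70, 0.049, 1.41 and -0.31. The fibroblast sum (98.4 to 227 and 96.3 to 142 CPM) was mostly Pdgfrb, and the B cell sum (443 to 737 and 269 to 485 CPM) was mostly Ighm. The basophil and eosinophil sum was mostly Cpa3 and Gata2, which mast cells also express, while Mcpt8, a basophil protease, averaged 23.4 ± 11.9 CPM against 19.3 ± 22.04 CPM with MC903. The 9 tested members of that list had log2 fold changes from -2.14 to 4.76, with 3 above 0, 6 below and a median of -0.10. The part of these low marker levels in the results was not tested.

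The edgeR quasi-likelihood test with Benjamini-Hochberg adjustment called 473 of 21014 genes (2.25%). Of these, 353 (1.68% of the genes tested) fell with MC903 and 120 (0.571%) rose, and 359 of the 473 differed at least 2-fold (263 lower, 96 higher). In 404 of the 473 the ranges of CPM in both groups were separate, against 5.33% of all genes tested. Over the genes tested, log2 fold changes had a median of 0.24, so the typical tested gene lay slightly higher with MC903 while most called genes lay lower. The split between directions depended on the scaling. With DESeq2 size factors 207 genes rose and 294 fell, and with TMM factors from abundant genes 251 rose and 266 fell. The DESeq2 Wald test, which changes the test together with the scaling, turned the majority, with 600 higher and 472 lower. Of the 473 genes, 413 and 385 were also called with DESeq2 size factors and with abundant-gene TMM, and the median of all genes moved to 0.40 and 0.45. That median was 0.056 without libraries 7 and 8, 0.031 with a filter at a mean of 10 CPM and 0.10 with only the 10 resident libraries in the fit. With no filter it was 0.73. The number of genes that fell was 218 without library 1 and 217 without library 6, and leaving out libraries 7 and 8 together left 189 calls (58 higher, 131 lower), 180 of them among the 473. A lower value can come from less RNA of a gene in each cell or from fewer cells that hold it, and in pooled cells these cannot be told apart.

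The genes were read through 51 lists of pathways and gene groups, chosen with earlier results of these data known. Their 1465 different tested members held 126 called genes (8.60%, against 2.25% of all genes). The 2.25% here and below covers all genes tested, scarce ones included. With a filter at a mean of 10 CPM, 646 of 8209 genes were called, 424 of them also called in the main fit. Whether the share of any list exceeds that of other genes at similar levels was not tested. The list of splicing factors, RNA helicases and RNA decay factors had 11 of 36 tested members lower and 1 higher. The list of NF-kappa B subunits and feedback genes followed with 10 of 28 lower and 2 higher, the immediate early genes with 8 of 37 lower, the chaperones with 6 of 37 lower, and the Nrf2 targets and the cytoskeleton with 5 lower each of 36 and 38. Members that rose were most numerous among proliferation genes (4 of 40), mast cell granule proteases (3 of 14) and proteins of the mitochondrial genome (3 of 13).

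**Figure D1:**
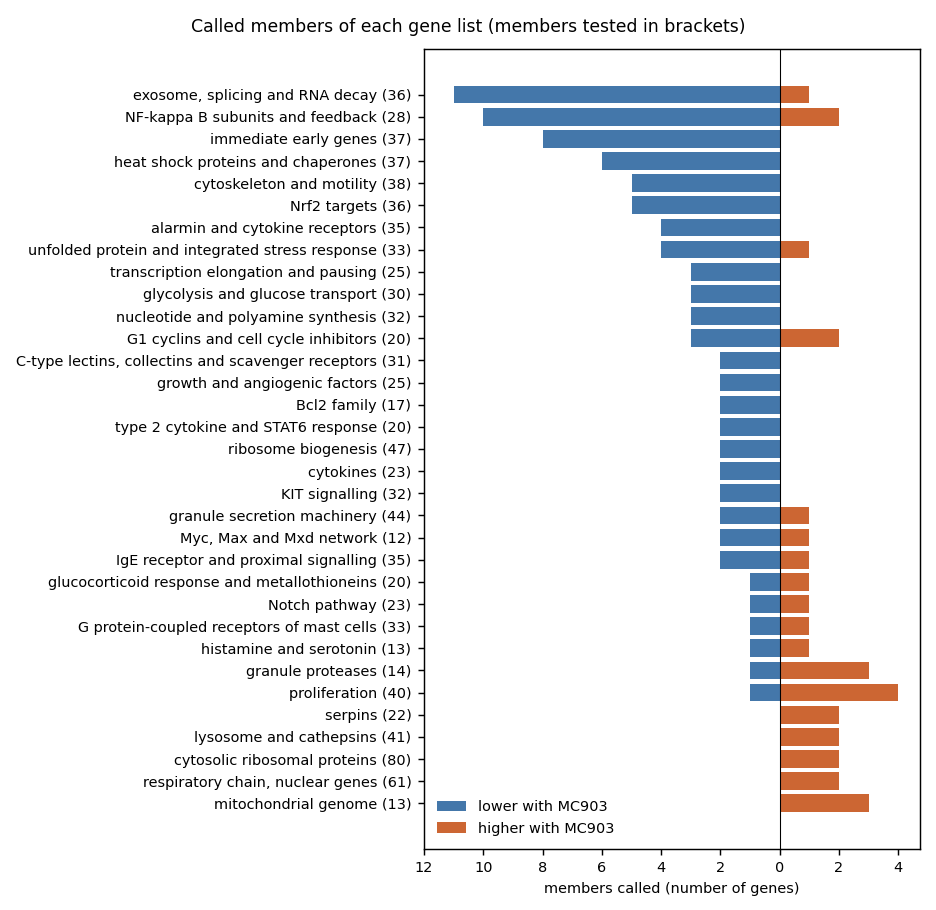
Number of called members in each gene list with at least 2 called members, with the number of tested members in brackets; blue bars to the left count genes lower with MC903 and orange bars to the right genes higher with MC903. The splicing, NF-kappa B and immediate early lists have the longest blue bars (11, 10 and 8 genes), and the proliferation list has the longest orange bar (4 genes).

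The subunits of the IgE receptor moved in different directions. Fcer1a (chr1:173221284-173227214 on GRCm38), which encodes the alpha chain that binds IgE, measured 658, 730.3, 530.2, 668 and 1116 CPM in untreated libraries 1 to 5 and 7079.8, 3834, 4604, 6782 and 6400.0 CPM in MC903 libraries 6 to 10. The lowest MC903 library thus stood above the highest untreated library, and the gene rose (log2 fold change 2.95 ± 0.23, adjusted p = 7.1e-07). Ms4a2, the beta chain that amplifies the signal, measured 1664, 1761, 1818, 1750.1 and 2754 CPM untreated and 1233, 843, 677, 1164 and 1517 CPM with MC903 and fell (log2 fold change -0.84 ± 0.21, adjusted p = 0.035). Its groups did not overlap, but the call was lost without library 1, 3, 4, 5, 6, 7, 8 or 9 (adjusted p = 0.0537 to 0.111). Fcer1g, the signalling gamma chain, did not pass the test (1648 ± 341 CPM against 2055 ± 384 CPM with MC903; log2 fold change 0.32 ± 0.17). Of the 35 tested members of the list of the receptor and its proximal signalling, 1 was higher and 2 were lower (8.57% called, against 2.25% of all genes; median log2 fold change -0.19, against 0.24 over all genes). The other lower gene was Nfatc1, a calcium-dependent transcription factor (199 ± 59.6 CPM against 99.98 ± 28.5 CPM with MC903; log2 fold change -0.99 ± 0.23, adjusted p = 0.0206), whose call was lost without library 1, 4, 6, 7 or 8 (adjusted p = 0.0602 to 0.102).

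The 250 bases before the start of Fcer1a (RefSeq, GRCm38.p6, chr1:173227230-173227479, minus strand) are shown because GATA factors are known regulators of mast cell genes and the gene rose most of the receptor list. Capitals mark 1 match to the GATA motif AGATAA, read here on the opposite strand, at 92 bases before the start.
Fcer1a: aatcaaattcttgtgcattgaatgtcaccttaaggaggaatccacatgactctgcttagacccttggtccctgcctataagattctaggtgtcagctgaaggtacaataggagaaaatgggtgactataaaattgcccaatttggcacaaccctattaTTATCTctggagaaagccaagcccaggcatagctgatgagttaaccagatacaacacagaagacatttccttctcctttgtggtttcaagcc
The motif was searched on both strands over 250 bases before and 50 after the start. It occurred in 4 of 28 promoters of the receptor list (14.3%), Fcer1a and Ms4a2 among them, and in 3 of 10 of the protease list (30%), against 11.4% of all 27025 promoters. Gata1, an erythroid and mast cell factor, rose (108 ± 6.58 CPM against 187 ± 49.8 CPM with MC903; log2 fold change 0.80 ± 0.20, adjusted p = 0.0348), although the call was lost without library 2, 3 or 10 (adjusted p = 0.0647 to 0.0855). Gata2, needed for mast cell identity, measured 2801 ± 349.7 CPM against 2049.9 ± 227 CPM with MC903, and did not pass the test (log2 fold change -0.45 ± 0.19, adjusted p = 0.291). Gata1 was the only called gene of 33 lineage transcription factors tested (3.03%, against 2.25% of all genes).

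Among granule proteases, 3 of 14 tested genes rose and 1 fell (28.6% called, against 2.25% of all genes; median log2 fold change 0.42). Tpsb2, a tryptase, measured 11319, 11831, 13396, 13418 and 13038 CPM untreated and 27211, 15969, 24026, 29518 and 28202 CPM with MC903, with no overlap (log2 fold change 0.99 ± 0.16, adjusted p = 0.00104). Mcpt4, a chymase, also separated the groups (14106 ± 1158 CPM against 23775 ± 3519.5 CPM with MC903; log2 fold change 0.75 ± 0.14, adjusted p = 0.00377). Cma1, another chymase gene, measured 21700.0, 22495, 22979.8, 24964 and 37611 CPM untreated and 45063, 35456, 40562, 52583 and 45256 CPM with MC903. Untreated library 5 lay above the lowest MC903 library, so the groups overlapped, but the gene passed the test (log2 fold change 0.75 ± 0.16, adjusted p = 0.0135). That call was lost when no filter was used (adjusted p = 0.106). Tpsg1, the membrane-anchored tryptase, went the other way, from 1165, 1257, 1058, 1374 and 1635 CPM to 577, 575, 606, 603 and 772 CPM (log2 fold change -1.05 ± 0.16, adjusted p = 0.000749). Cpa3, the mast cell carboxypeptidase, did not pass (22133 ± 4534 CPM against 28333 ± 6737 CPM with MC903; log2 fold change 0.36 ± 0.19, adjusted p = 0.462). Several proteases are near-identical copies of each other, and how shared reads were counted is not given in the sources used here, so their values are uncertain.

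The enzymes of the 2 granule amines also went opposite ways. Tph1 (chr7:46644641-46672537), the rate-limiting enzyme of serotonin synthesis outside neurons, measured 596, 608, 537, 429.9 and 716 CPM untreated and 2170.1, 2451, 1568, 2696 and 3045 CPM with MC903. Every MC903 library was above every untreated one (log2 fold change 2.05 ± 0.20, adjusted p = 6.8e-06). Hdc (chr2:126593667-126619299), which makes histamine, measured 13112, 11416, 10053, 10761 and 9563 CPM untreated and 5407, 6406, 4208, 6159 and 5733 CPM with MC903, again with no overlap, and fell (log2 fold change -0.98 ± 0.18, adjusted p = 0.00333). The serotonin transporter Slc6a4 measured 1730.3 ± 118 CPM against 1188 ± 143 CPM with MC903, without overlap between the groups, but did not pass (log2 fold change -0.54 ± 0.17, adjusted p = 0.113). These were the only called genes of 13 tested in the histamine and serotonin list (15.4%, against 2.25% of all genes; median log2 fold change 0.01). Both calls held in each of the 10 fits that left out 1 library.

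**Figure D2:**
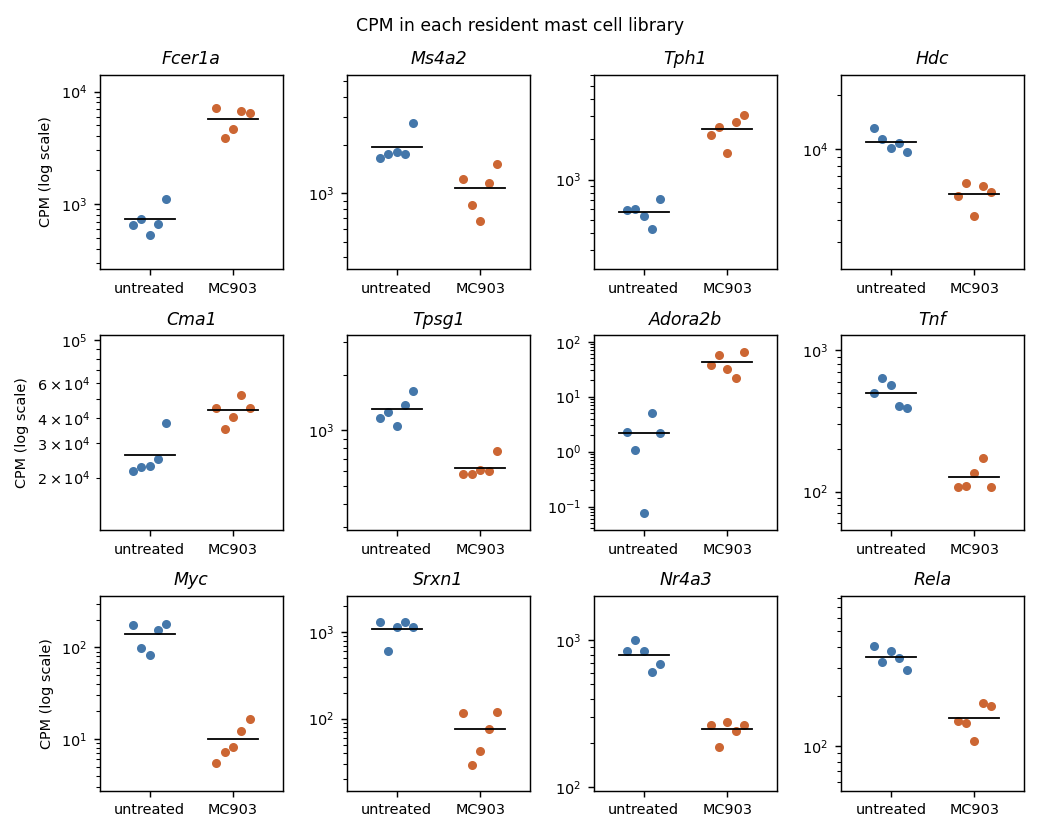
CPM on a log scale in each of the 5 untreated (blue) and 5 MC903 (orange) resident mast cell libraries for 12 genes, with a line at each group mean. Fcer1a, Tph1 and Adora2b have every MC903 library above every untreated library, Ms4a2, Hdc, Tpsg1, Tnf, Myc, Srxn1, Nr4a3 and Rela the reverse, and Cma1 overlaps through untreated library 5.

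Of 33 G protein-coupled receptors tested 1 rose and 1 fell (6.06%, against 2.25% of all genes). Adora2b (chr11:62248984-62266453), a receptor for extracellular adenosine, measured 2.27, 1.07, 0.075, 5.13 and 2.15 CPM untreated and 38.4, 57.4, 31.8, 21.5 and 65.1 CPM with MC903. It was near absent in untreated libraries and rose (log2 fold change 4.33 ± 0.64, adjusted p = 0.00097). Mrgprb1, a mast cell receptor with near-identical copies, was the 1 that fell (2616 ± 401 CPM against 1552 ± 349.8 CPM with MC903; log2 fold change -0.75 ± 0.19, adjusted p = 0.038). That call was lost without library 1, 3, 4, 5, 6, 7, 8 or 9 (adjusted p = 0.0705 to 0.131), and with either DESeq2 size factors (adjusted p = 0.059) or abundant-gene TMM (adjusted p = 0.0811). Among 35 alarmin and cytokine receptors 4 fell (11.4%). Il10ra, the ligand-binding chain of the interleukin-10 receptor, went from a range of 301 to 530.3 CPM to one of 115 to 229 CPM (log2 fold change -1.50 ± 0.24, adjusted p = 0.000902). Ifnar2, a chain of the type I interferon receptor, went from a range of 494 to 675 CPM to one of 230.3 to 328 CPM (log2 fold change -1.06 ± 0.20, adjusted p = 0.00371). Ifngr1 (log2 fold change -1.10) and Il17ra (-0.98), receptor chains for interferon gamma and interleukin 17, completed the 4. Both lost the call with DESeq2 size factors (adjusted p = 0.0584 and 0.057) and in several fits without 1 library, Ifngr1 without library 1, 3, 4, 5, 6, 7, 8 or 10 (adjusted p = 0.0591 to 0.11) and Il17ra without library 1, 4, 7, 8 or 9 (adjusted p = 0.0727 to 0.154).

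KIT itself did not pass the test: Kit measured 2022, 1723, 2033, 1779.8 and 789 CPM untreated, with library 5 far below the rest, and 1332, 1022, 829.7, 1387 and 1828 CPM with MC903 (log2 fold change -0.38 ± 0.24, adjusted p = 0.603). Of 32 tested genes of KIT signalling, 2 fell (6.25%, against 2.25% of all genes; median log2 fold change -0.28). Map2k3, a kinase upstream of p38, went from 761, 464, 557, 551 and 565 CPM to 214, 201, 150.3, 174 and 232 CPM (log2 fold change -1.58 ± 0.19, adjusted p = 4.06e-05). Spry2, a feedback inhibitor of Ras signalling, also fell (57.5 ± 18.8 CPM against 20.5 ± 8.92 CPM with MC903; log2 fold change -1.49 ± 0.35, adjusted p = 0.0228), a call lost without library 3, 4, 5, 6, 8 or 9 (adjusted p = 0.0566 to 0.0866). Among 27 inhibitory and Fc gamma receptor genes only Pdcd1lg2, which encodes the checkpoint ligand PD-L2, was called, and it fell from a range of 5.37 to 29.03 CPM to one of 1.10 to 3.25 CPM (log2 fold change -3.11 ± 0.62, adjusted p = 0.00668). That is 3.70% of the list, near the 2.25% of all genes. Leaving out libraries 7 and 8 together ended the calls of Ifnar2 (adjusted p = 0.0527) and Pdcd1lg2 (adjusted p = 0.0985).

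Of 23 tested cytokine genes 2 fell and none rose (8.70%, against 2.25% of all genes). Tnf, the tumour necrosis factor gene, measured 499, 639, 568, 406 and 392 CPM untreated and 108, 109, 135, 172 and 107 CPM with MC903. The highest MC903 library stood below the lowest untreated library, and the gene fell (log2 fold change -1.99 ± 0.21, adjusted p = 1.28e-05). Csf1, macrophage colony-stimulating factor, fell from a range of 494 to 1043 CPM to one of 283 to 493 CPM (log2 fold change -1.14 ± 0.26, adjusted p = 0.0163), a call lost without library 1, 3, 4, 6, 7 or 8 (adjusted p = 0.0555 to 0.0741). Osm, which encodes oncostatin M, was the most abundant cytokine transcript that did not pass (1552 ± 477 CPM against 1833 ± 396 CPM with MC903; log2 fold change 0.24 ± 0.22). The chemokine gene Ccl7 measured 21391, 22610.1, 22710.3, 22085 and 34794 CPM untreated and 11719, 9390.2, 12714, 14246 and 18859 CPM with MC903. The groups did not overlap, yet the difference missed the threshold (log2 fold change -0.88 ± 0.25, adjusted p = 0.0682).

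The NF-kappa B list had 10 lower and 2 higher of 28 tested members (42.9% called, against 2.25% of all genes; median log2 fold change -0.53). The subunit genes Rela, Rel, Nfkb1 and Nfkb2 all fell. Rela, the main activating subunit, measured 408, 325, 379, 341 and 291 CPM untreated and 141, 138, 106, 181 and 176 CPM with MC903 (log2 fold change -1.23 ± 0.18, adjusted p = 0.000425). Every MC903 library lay below every untreated one for Rela, as for Rel (log2 fold change -1.30 ± 0.26), Nfkb1 (-1.04 ± 0.18) and Nfkb2 (-1.38 ± 0.25). Some inhibitor genes also fell, while Nfkbid, an I-kappa B family gene and the most abundant member that was not called, did not pass (1089.5 ± 453 CPM against 634 ± 216 CPM with MC903; log2 fold change -0.78 ± 0.28, adjusted p = 0.188). Nfkbib, I-kappa B beta, measured 178 ± 36.8 CPM against 66.7 ± 16.4 CPM with MC903 (log2 fold change -1.42 ± 0.23, adjusted p = 0.00104). Nfkbiz, a nuclear I-kappa B protein, measured 2962 ± 414 CPM against 1269 ± 407 CPM with MC903 (log2 fold change -1.22 ± 0.21, adjusted p = 0.00164), and Tnfaip3, which encodes the ubiquitin-editing inhibitor A20, 2198 ± 612 CPM against 939.6 ± 310.1 CPM with MC903 (log2 fold change -1.23 ± 0.26, adjusted p = 0.0091). Bcl10, an adaptor that links antigen receptors to NF-kappa B, and Birc3, a ubiquitin ligase of the pathway, fell (log2 fold changes -1.39 and -1.31). Traf1, a signalling adaptor, rose from 24.4, 11.2, 13.6, 19.8 and 14.8 CPM to 43.2, 62.5, 46.4, 39.6 and 61.6 CPM (log2 fold change 1.596 ± 0.30, adjusted p = 0.0036). Bcl3, an atypical I-kappa B protein, also rose (7.90 ± 2.95 CPM against 23.2 ± 11.7 CPM with MC903; log2 fold change 1.55 ± 0.41, adjusted p = 0.0499), a call lost without library 1, 2, 4, 5, 8, 9 or 10 (adjusted p = 0.0679 to 0.115). The call of Birc3 was lost without library 1, 2, 6, 7, 8 or 10 (adjusted p = 0.058 to 0.0954). The calls of Rel (adjusted p = 0.1), Nfkb2 (adjusted p = 0.0676) and Tnfaip3 (adjusted p = 0.127) were lost without libraries 7 and 8 together. The list kept 2 higher and 5 lower calls without libraries 7 and 8, and 8 to 10 lower calls in the fits without 1 library.

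The promoter of Nfkbia, I-kappa B alpha, is shown because this gene is a known direct target of NF-kappa B (250 bases before the start, RefSeq, GRCm38.p6, chr12:55492648-55492897, minus strand). Capitals mark both matches to the kappa B motif GGGANTTTC on either strand, which begin 113 and 28 bases before the start.
Nfkbia: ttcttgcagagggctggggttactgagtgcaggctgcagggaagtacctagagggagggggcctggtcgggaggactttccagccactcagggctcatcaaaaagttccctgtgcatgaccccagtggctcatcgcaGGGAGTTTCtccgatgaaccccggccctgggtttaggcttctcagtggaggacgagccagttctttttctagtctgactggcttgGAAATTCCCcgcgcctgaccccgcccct
This motif, chosen after the values were seen, occurred in 2 of 23 promoters of the list (8.70%) and in 1.15% of all promoters. Nfkbia itself measured 840.5, 2219, 1084, 1162 and 1069 CPM untreated and 528, 629, 688, 842 and 684 CPM with MC903. It fell (log2 fold change -0.92 ± 0.23, adjusted p = 0.035), with the highest MC903 library just above the lowest untreated library, a call lost with DESeq2 size factors (adjusted p = 0.0636) and without library 2, 3, 4, 6, 7, 8, 9 or 10 (adjusted p = 0.0518 to 0.157). Of the 8 lower genes of the list with a promoter sequence, Nfkbia was the 1 that held the motif.

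Immediate early genes had 8 lower and no higher calls among 37 tested (21.6%, against 2.25% of all genes; median log2 fold change -0.63, with 31 of 37 below 0). Nr4a3, an orphan nuclear receptor, measured 842, 998, 849, 605 and 689 CPM untreated and 264, 188, 276, 242 and 266 CPM with MC903, without overlap (log2 fold change -1.69 ± 0.19, adjusted p = 2.78e-05). Ier5, a regulator of the heat shock response, went from a range of 88.4 to 292 CPM to one of 28.8 to 67.3 CPM (log2 fold change -2.04 ± 0.30, adjusted p = 0.000485), and Nr4a2 from a range of 491 to 731 CPM to one of 105 to 269 CPM (log2 fold change -1.56 ± 0.28, adjusted p = 0.00284). Egr1, a zinc finger factor induced by growth signals, fell from 4778, 7781, 7073, 5843 and 5328 CPM to 1483, 2221, 1877, 3779 and 3458 CPM (log2 fold change -1.26 ± 0.27, adjusted p = 0.0108), a call lost without library 6 (adjusted p = 0.0501). Plk3, Klf6, Junb and Egr3 completed the 8, with log2 fold changes of -1.22, -0.99, -0.88 and -0.78. Of these, Plk3 lost its call without library 3, 6 or 8 (adjusted p = 0.0653 to 0.0728), Junb without library 2, 3, 6, 7 or 8 (adjusted p = 0.0575 to 0.0915), and Egr3 without library 1, 2, 3, 4, 5, 6, 7, 8 or 10 (adjusted p = 0.0561 to 0.164) and with DESeq2 size factors (adjusted p = 0.0675). Fos, the AP-1 subunit, was the most abundant member that did not pass: it ranged over 3955 to 10813 CPM untreated and 3997 to 8803 CPM with MC903 (log2 fold change -0.46 ± 0.25, adjusted p = 0.487). Without libraries 7 and 8 only 2 of the 8 calls held, and without 1 library 4 to 9 genes of the list were lower. Sorting and digestion times are not given in the sources used here, and their part in these differences was not tested.

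Of 36 tested targets of Nrf2, the factor that induces antioxidant genes, 5 fell and none rose (13.9%, against 2.25% of all genes; median log2 fold change -0.59). Srxn1 (chr2:152105516-152111376), which encodes sulfiredoxin, the enzyme that restores over-oxidised peroxiredoxins, measured 1309, 614, 1149.7, 1309.9 and 1151 CPM untreated and 116, 29.2, 41.9, 75.2 and 119 CPM with MC903. Library 2 was the lowest untreated library and still stood far above all MC903 libraries (log2 fold change -3.86 ± 0.52, adjusted p = 0.000908). Sqstm1, the autophagy receptor p62, measured 8304 ± 891 CPM against 3270.2 ± 1330.4 CPM with MC903 (log2 fold change -1.34 ± 0.21, adjusted p = 0.000943), and Gstm1, a glutathione transferase with close paralogs, 2088 ± 250.4 CPM against 821 ± 144 CPM with MC903 (log2 fold change -1.35 ± 0.16, adjusted p = 3.65e-05). Nfe2l2, the gene of Nrf2 itself, fell by 0.92 on the log2 scale, a call lost without library 1, 2, 6, 7, 8 or 9 (adjusted p = 0.0553 to 0.0858). Fth1, the ferritin heavy chain, fell by 0.99 on the log2 scale, a call lost with DESeq2 size factors (adjusted p = 0.0586) and without library 1, 3, 4, 5, 6, 7, 8 or 9 (adjusted p = 0.0518 to 0.113).

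The promoter of Srxn1 is shown because this gene had the lowest log2 fold change of the list (250 bases before the start, RefSeq, GRCm38.p6, chr2:152105274-152105523, plus strand). Capitals mark both matches to the AP-1 motif TGANTCA, which begin 102 and 45 bases before the start.
Srxn1: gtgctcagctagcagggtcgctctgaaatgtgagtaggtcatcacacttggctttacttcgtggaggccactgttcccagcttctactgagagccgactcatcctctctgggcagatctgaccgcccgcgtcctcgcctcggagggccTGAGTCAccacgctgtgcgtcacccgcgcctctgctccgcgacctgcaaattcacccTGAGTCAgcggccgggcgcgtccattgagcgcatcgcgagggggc
The AP-1 motif, chosen after the values were seen and searched on both strands, overlaps in its letters with the antioxidant response element. It occurred in 4 of 31 promoters of the Nrf2 list (12.9%), in 1 of 32 of the immediate early list (3.13%) and in 7.93% of all promoters. The core antioxidant response element TGACNNNGC occurred in 10 of the 31 (32.3%), Srxn1 and Nfe2l2 among them, and in 12.5% of all promoters. In Srxn1 that match lay after the start and is not in the bases shown.

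Among 37 chaperone genes 6 fell and none rose (16.2%, against 2.25% of all genes; median log2 fold change -0.33), and the members that fell were mostly co-chaperones rather than the abundant heat shock proteins. Dnajb6, a co-chaperone that suppresses protein aggregation, measured 565, 508, 538, 451 and 594 CPM untreated and 153, 140.0, 166, 151 and 196 CPM with MC903 (log2 fold change -1.72 ± 0.17, adjusted p = 6.8e-06). Its groups were far apart, with MC903 libraries within a narrow range. Dnajb2, Dnajb4 and Dnaja1, other J-domain proteins, fell (log2 fold changes -2.08, -1.96 and -1.22). Bag3, a partner of heat shock protein 70, and Hspa9, its mitochondrial form, fell (log2 fold changes -1.10 and -1.03). All 6 had groups that did not overlap. Hspa8, the constitutive form and the most abundant member that did not pass, measured 2375 ± 409 CPM against 1684 ± 408 CPM with MC903 (log2 fold change -0.50 ± 0.18, adjusted p = 0.182). The list had 6 lower calls in every fit without 1 library and 4 without libraries 7 and 8.

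The promoter of Dnajb6 (250 bases before the start, RefSeq, GRCm38.p6, chr5:29735648-29735897, plus strand) is shown with its match to the heat shock element GAANNTTC in capitals, 46 bases before the start.
Dnajb6: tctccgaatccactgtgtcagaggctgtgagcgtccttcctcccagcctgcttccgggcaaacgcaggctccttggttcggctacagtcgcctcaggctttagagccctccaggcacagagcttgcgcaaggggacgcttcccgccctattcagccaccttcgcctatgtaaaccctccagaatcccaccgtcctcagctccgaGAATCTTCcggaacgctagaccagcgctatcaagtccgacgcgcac
This motif occurred in 10 of 33 promoters of the chaperone list (30.3%) and in 7.95% of all promoters. Of the 5 lower genes with a promoter sequence, 3 held it, namely Dnaja1, Dnajb6 and Bag3.

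In the unfolded protein and integrated stress response 4 of 33 genes fell and 1 rose (15.2%, against 2.25% of all genes). Atf4, the transcription factor at the centre of the integrated stress response, measured 894, 741, 584, 815 and 748 CPM untreated and 348, 239, 285, 310.4 and 351 CPM with MC903, with no overlap (log2 fold change -1.30 ± 0.17, adjusted p = 0.000135). Dnajb9 and Herpud1, induced by endoplasmic reticulum stress, fell (log2 fold changes -1.92 and -1.19). The call of Herpud1 was lost without library 1, 3, 4, 5, 6, 7, 8 or 9 (adjusted p = 0.0554 to 0.0986). Hspa5, the chaperone BiP, measured 1404 ± 378 CPM against 687 ± 178 CPM with MC903 (log2 fold change -1.03 ± 0.23, adjusted p = 0.0145), a call lost without library 7 (adjusted p = 0.0533). Calr, the calcium-binding chaperone calreticulin, rose from 103, 96.97, 118, 105 and 76.8 CPM to 253, 210.2, 205, 289 and 237 CPM (log2 fold change 1.26 ± 0.19, adjusted p = 0.000633). The median of the list was 0.32, above that of all genes, with 20 of 33 members above 0. When libraries 7 and 8 were both left out, the calls were lost for Nr4a2 (adjusted p = 0.0508), Dnajb2 (adjusted p = 0.108), Dnajb4 (adjusted p = 0.0653) and Dnajb9 (adjusted p = 0.0519).

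**Figure D3:**
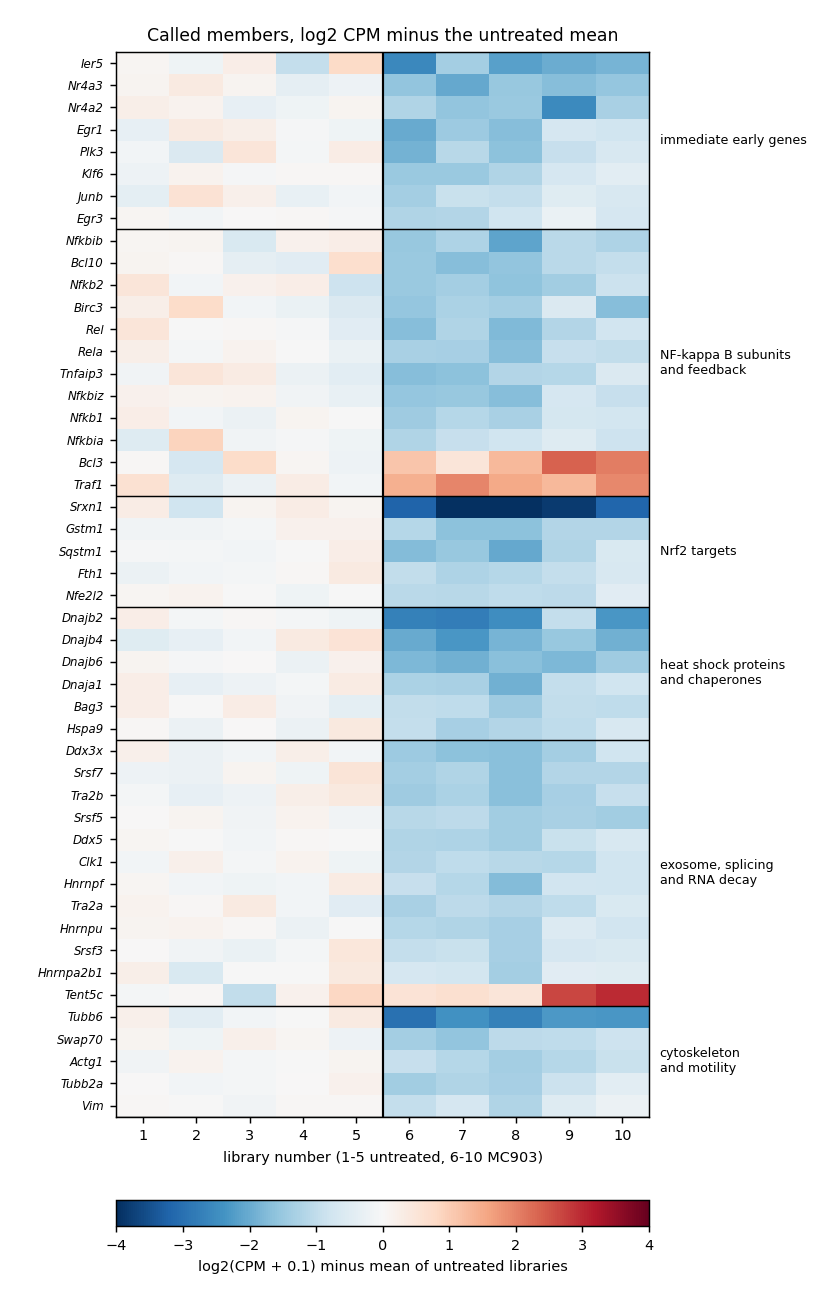
Log2(CPM + 0.1) of each called member of 6 gene lists in the 10 resident libraries, minus the mean of the untreated libraries on that scale; blue is lower and red higher, and the colour scale ends at 4 in both directions. Traf1, Bcl3 and Tent5c are the genes in red, and libraries 9 and 10 are paler than libraries 6 to 8 for many of the blue ones.

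Growth and cell cycle genes were mixed. Myc (chr15:61985391-61990374), a driver of ribosome production and growth, measured 177, 98.5, 82.3, 156 and 180.4 CPM untreated and 5.47, 7.19, 8.20, 12.1 and 16.7 CPM with MC903. All MC903 libraries were far below the lowest untreated library (log2 fold change -3.80 ± 0.33, adjusted p = 1.66e-06). Mxd1, an antagonist that competes with Myc for its partner Max, rose (115 ± 50.8 CPM against 248 ± 39.05 CPM with MC903; log2 fold change 1.11 ± 0.28, adjusted p = 0.0353), a call lost without library 1, 3, 4, 5, 6, 7, 8 or 10 (adjusted p = 0.0518 to 0.09). Mlxip, a related glucose-sensing factor, fell by 1.13 on the log2 scale, a call lost with DESeq2 size factors (adjusted p = 0.0573) and without library 1, 3, 4, 6, 7, 8 or 9 (adjusted p = 0.051 to 0.103). Of 47 ribosome biogenesis genes only Utp4 and Ncl, 2 nucleolar proteins, were called, both lower (-1.59 and -0.82), a share of 4.26%, against 2.25% of all genes. The call of Ncl was lost without library 1, 6 or 8 (adjusted p = 0.0625 to 0.0954) and without libraries 7 and 8 together (adjusted p = 0.134). The median of that list was -0.32. The E-box CACGTG, the motif bound by Myc and Max, occurred in 10 of 42 of its promoters (23.8%) and in 7.24% of all promoters.

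The proliferation list had the second highest median log2 fold change of all lists (1.78), with 36 of 40 tested members above 0 and 12.5% called, against 2.25% of all genes. Uhrf1, which maintains DNA methylation, measured 1.25, 0.66, 1.65, 2.37 and 0.8 CPM untreated and 6.56, 12.2, 10.01, 14.5 and 14.6 CPM with MC903 (log2 fold change 3.10 ± 0.65, adjusted p = 0.00959). Mcm5 and Mcm7, subunits of the replicative helicase, rose from a range of 7.77 to 14.6 CPM to one of 18.02 to 59.9 CPM and from a range of 3.04 to 20.2 CPM to one of 22.4 to 40.6 CPM (1.93 and 1.84 on the log2 scale). Cenpa, the centromeric histone, rose by 2.04 on the log2 scale, although library 10 lay below the untreated range (8.10 to 111 CPM in the MC903 libraries), and its call was lost without library 1, 2, 3, 4, 5, 6, 8 or 9 (adjusted p = 0.0537 to 0.0899). Pcna, the sliding clamp, went the other way (218 ± 85.9 CPM against 101 ± 42.3 CPM with MC903; log2 fold change -1.11 ± 0.28, adjusted p = 0.0367), a call lost with DESeq2 size factors (adjusted p = 0.0508) and without library 1, 3, 4, 5, 6, 7, 8 or 9 (adjusted p = 0.0559 to 0.108). Without libraries 7 and 8, 1 gene of the list was called higher and none lower. The median of the list was then 1.85. Markers of T and innate lymphoid, endothelial, keratinocyte, B and fibroblast cells also had medians of 1.10 to 1.51 over all libraries, and libraries 7 and 8 had the most genes detected. The part of either in the higher median was not tested.

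Among 20 cyclins and cell cycle inhibitors 2 rose and 3 fell (25%, against 2.25% of all genes). Cdk6 and Ccnd3, partners that drive entry into the cell cycle, rose from a range of 132 to 199 CPM to one of 225 to 441 CPM (log2 fold change 1.02 ± 0.20, adjusted p = 0.00477) and from a range of 42.7 to 90.3 CPM to one of 96.5 to 179 CPM (log2 fold change 1.01 ± 0.23, adjusted p = 0.0186). The call of Ccnd3 was lost without library 3 (adjusted p = 0.0518). Cdkn1a, the cell cycle inhibitor p21, fell by 0.90 on the log2 scale, Mdm2, the ubiquitin ligase of p53, fell by 1.52, and Trp53, the gene of p53, fell by 1.0005. The call of Trp53 was lost with DESeq2 size factors (adjusted p = 0.0767) and without library 1, 2, 3, 5, 6, 8, 9 or 10 (adjusted p = 0.0567 to 0.141). In the Bcl2 family 2 of 17 genes fell (11.8%). Mcl1, which protects mast cells from death, measured 558, 1058, 1441, 1477 and 1464 CPM untreated and 374, 285, 241, 367 and 637 CPM with MC903, and the lowest untreated library lay within the MC903 range (log2 fold change -1.66 ± 0.28, adjusted p = 0.00158). Pmaip1, the death-promoting protein Noxa, measured 46.4 ± 20.7 CPM against 6.89 ± 2.32 CPM with MC903 (log2 fold change -2.75 ± 0.67, adjusted p = 0.0282), a call lost without library 1, 2, 3, 5, 6, 7, 8, 9 or 10 (adjusted p = 0.0553 to 0.109).

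The RNA processing list had the lowest median of all lists (-0.74), and 33 of its 36 tested members lay below 0, with 33.3% called, against 2.25% of all genes. The serine- and arginine-rich splicing factors Srsf7, Srsf5 and Srsf3 fell (log2 fold changes -1.33, -1.24 and -0.90), and the splicing regulators Tra2b and Tra2a fell (log2 fold changes -1.32 and -1.04). Srsf7 measured 417, 406, 523, 423 and 686 CPM untreated and 187, 211, 150.3, 212 and 216 CPM with MC903, with no overlap (log2 fold change -1.33 ± 0.21, adjusted p = 0.000945). Clk1, a kinase that phosphorylates these factors, fell from a range of 430.1 to 558 CPM to one of 215 to 274 CPM (log2 fold change -1.05 ± 0.16, adjusted p = 0.000844). The RNA helicase genes Ddx3x and Ddx5 measured 601 ± 89.5 CPM against 233 ± 62.7 CPM with MC903 (log2 fold change -1.37 ± 0.20, adjusted p = 0.000597) and 1187 ± 53.7 CPM against 573 ± 125 CPM with MC903 (log2 fold change -1.05 ± 0.16, adjusted p = 0.000699). Hnrnpf, Hnrnpu and Hnrnpa2b1, RNA-binding proteins of nuclear transcripts, fell (log2 fold changes -1.05, -0.97 and -0.74). The call of Hnrnpa2b1 was lost with DESeq2 size factors (adjusted p = 0.0639) and without library 1, 3, 4, 5, 6, 7, 8 or 9 (adjusted p = 0.0807 to 0.151), and that of Tra2a without library 1, 2, 3, 4, 6, 7, 8 or 9 (adjusted p = 0.0523 to 0.0915). Those of Srsf3 (adjusted p = 0.0796) and Hnrnpu (adjusted p = 0.0661) were lost without libraries 7 and 8 together. The 1 gene that rose was Tent5c, a poly(A) polymerase, and its level in libraries 9 and 10 (54.5 and 67.7 CPM) was far above that in libraries 6 to 8 (12.2, 13.2 and 11.8 CPM). Its call (log2 fold change 1.81 ± 0.48, adjusted p = 0.0497) was lost without library 1, 2, 3, 4, 9 or 10 (adjusted p = 0.0792 to 0.15). The list had 9 to 12 lower calls without 1 library and 7 without libraries 7 and 8.

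Of 25 genes of transcription elongation and pausing 3 fell (12%, against 2.25% of all genes; median log2 fold change -0.46). Brd2, a reader of acetylated histones, went from 365, 158, 269.9, 261 and 158 CPM to 77.00, 92.6, 56.2, 79.4 and 69.6 CPM (log2 fold change -1.69 ± 0.23, adjusted p = 0.00027). Hexim1, which holds the elongation kinase inactive, and Ell2, an elongation factor, also fell, with log2 fold changes of -3.28 and -2.49. Both calls were lost with DESeq2 size factors (adjusted p = 0.052 and 0.0583), that of Hexim1 also without library 1, 3, 4, 5, 6, 7, 8, 9 or 10 (adjusted p = 0.067 to 0.13) and that of Ell2 without library 1, 2, 3, 4, 6, 7, 8, 9 or 10 (adjusted p = 0.0546 to 0.186). In the cytoskeleton list 5 of 38 genes fell (13.2%). Tubb6, a beta tubulin, measured 505, 329, 405, 430.1 and 560.2 CPM untreated and 55.5, 80.9, 67.02, 89.8 and 86.4 CPM with MC903, a wide gap (log2 fold change -2.55 ± 0.33, adjusted p = 0.000126). Actg1, Swap70, Tubb2a and Vim, a cytoplasmic actin, an actin regulator, another tubulin and the intermediate filament vimentin, fell (log2 fold changes -1.08, -1.15, -1.001 and -0.69). The call of Vim was lost without library 1, 4, 6, 7, 8 or 9 (adjusted p = 0.0561 to 0.107). Actin and tubulin genes have close paralogs. The median of the list was 0.17, near that of all genes.

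The share of counts from mitochondrial genes was 1.44 ± 0.18% (SD, n = 5) in untreated and 2.75 ± 0.68% (SD, n = 5) in MC903 libraries, a difference of 1.31 percentage points (exact two-sided permutation test, p = 0.00794, the smallest that 252 arrangements allow). All 13 protein genes of mitochondrial DNA had a positive log2 fold change (median 0.80), and 3 rose (23.1%, against 2.25% of all genes). These were mt-Nd6, mt-Nd5 and mt-Nd4, subunits of respiratory complex I, with log2 fold changes of 1.68 ± 0.26, 1.08 ± 0.20 and 1.02 ± 0.22. Library 10 was the highest for all 3, and mt-Nd5 measured 856, 819.8, 869, 910.1 and 859.9 CPM untreated and 1395, 1648, 1393, 1778 and 2891 CPM with MC903. Of 61 nuclear genes of the respiratory chain 50 lay above 0, with a median of 0.32 near the 0.24 of all genes. Only 2 of the 61, the complex III subunits Uqcrq and Uqcr10, rose (by 1.18 and 0.996), a share of 3.28% that is near the 2.25% of all genes. The call of Uqcr10 was lost without library 1, 2, 3 or 8 (adjusted p = 0.0547 to 0.0824). With DESeq2 size factors 9 of the 61 and 6 of the 13 were called higher. Mitochondrial transcript shares also move with RNA quality and cell handling, whose part was not tested.

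Slc2a1 and Slc2a3, the glucose transporters GLUT1 and GLUT3, measured 173 ± 13.2 CPM against 65.2 ± 22.2 CPM with MC903 (log2 fold change -1.41 ± 0.27, adjusted p = 0.00524) and 181 ± 47.6 CPM against 70.6 ± 22.7 CPM with MC903 (log2 fold change -1.36 ± 0.25, adjusted p = 0.00362). Aldoa, a glycolytic aldolase, fell by 0.72 on the log2 scale. They were the 3 called genes of 30 in glycolysis and glucose transport (10%, against 2.25% of all genes), a list with 14 members above 0, 16 below and a median of -0.12. Of 32 genes of nucleotide and polyamine synthesis 3 fell (9.38%): Impdh2 of guanine nucleotide synthesis, and Sat1 and Azin1 of polyamine control (-1.40, -1.34 and -1.26). Each of these 3 was lost in at least 1 fit without 1 library, Impdh2 without library 1, 5, 6, 7, 8 or 10 (adjusted p = 0.0571 to 0.0915), Sat1 without library 6, 7 or 8 (adjusted p = 0.0514 to 0.0579) and Azin1 without library 1, 3, 4, 5, 6, 7, 8 or 9 (adjusted p = 0.0749 to 0.137). Of 80 cytosolic ribosomal proteins 72 lay above 0, with a median of 0.30 near that of all genes, and 2 rose (2.5%, against 2.25% of all genes), among them Rack1, a scaffold protein of the ribosome, by 0.66 on the log2 scale. Without libraries 7 and 8 together, the calls were lost for Slc2a1 (adjusted p = 0.0796), Aldoa (adjusted p = 0.0915), Utp4 (adjusted p = 0.0617), Uhrf1 (adjusted p = 0.0561), Mcm5 (adjusted p = 0.0618), Mdm2 (adjusted p = 0.0874) and Tubb2a (adjusted p = 0.0796).

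Granule and lysosome genes changed singly. Rab38, a small GTPase of lysosome-related organelles, rose from 51.5, 38.6, 62.8, 40.2 and 37.2 CPM to 102, 160.2, 136, 107 and 88.3 CPM (log2 fold change 1.36 ± 0.22, adjusted p = 0.00103). Rab5a and Rab7, of early and late endosomes, fell (log2 fold changes -0.97 and -0.83), calls lost without library 1, 2, 3, 4, 5, 6, 7 or 8 (adjusted p = 0.0511 to 0.11) for Rab5a and without library 1 (adjusted p = 0.0598) for Rab7. Those were the 3 called genes of 44 in the secretion machinery (6.82%, against 2.25% of all genes). Ctsd, the lysosomal protease cathepsin D, and Cst3, the cathepsin inhibitor cystatin C, rose by 0.77 and 0.79, the 2 called of 41 lysosome genes (4.88%). Their calls were lost without library 2 (adjusted p = 0.0508) for Ctsd and without library 1, 2, 3, 4, 6, 8, 9 or 10 (adjusted p = 0.0564 to 0.109) for Cst3. Serpina3g, an intracellular inhibitor of cathepsins, measured 0.91, 0, 0.49, 0.047 and 0 CPM untreated and 23.1, 34.7, 26.2, 23.2 and 4.05 CPM with MC903. It was near 0 in all untreated libraries and rose (log2 fold change 6.28 ± 0.95, adjusted p = 0.000902), with library 10 the lowest of the MC903 group. Spink2, a protease inhibitor, rose from a range of 0 to 4.46 CPM to one of 12.3 to 42.2 CPM (log2 fold change 3.93 ± 0.86, adjusted p = 0.0143).

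In the list of the vitamin D receptor and its targets none of 14 tested genes was called by the edgeR fit over 14 libraries or by DESeq2, 1 had an unadjusted p under 0.05, and limma with quality weights called 1 lower. The edgeR fits with a length offset and with only the 10 resident libraries also called 1 lower. The median of that list was 0.12, with 7 of the 14 above 0 and 7 below. Summed over its 21 genes, the level was 264 to 285 CPM untreated and 163 to 211 CPM with MC903, so the sums did not overlap. Of 20 genes of the type 2 cytokine and STAT6 response 2 fell (10%, against 2.25% of all genes), Pdcd1lg2 as above and Cish, a cytokine-inducible inhibitor of STAT signalling (332 ± 77.1 CPM against 154 ± 42.9 CPM with MC903; log2 fold change -1.10 ± 0.22, adjusted p = 0.0059). The interferon response had a median of 0.87 over 49 genes and 1 called gene (2.04%, near the 2.25% of all genes), the ubiquitin-like Isg15, which measured 11.9, 12.6, 19.5, 18.7 and 6.44 CPM untreated and 81.5, 16.9, 64.7, 14.99 and 51.9 CPM with MC903 (log2 fold change 1.73 ± 0.41, adjusted p = 0.0258). Its MC903 values were spread over both ends, and the call was lost without library 1, 2, 5, 6, 8 or 10 (adjusted p = 0.0503 to 0.0912).

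In 13 of the 51 lists the edgeR fit over 14 libraries called no gene, the vitamin D list among them. Other edgeR settings called members of several of these lists, such as 3 genes of MHC class I and the immunoproteasome higher with DESeq2 size factors, 2 integrin and adhesion genes higher with TMM from abundant genes, and 2 chemokines lower with a length offset. For the other 12, the values that follow are the genes tested, those with an unadjusted p under 0.05, and those called in either direction by DESeq2 and by limma with quality weights. Proteoglycan and heparin synthesis had 27 tested, 4 under 0.05, and 3 and 1 called, and eicosanoid synthesis 17, 4, 3 and 3. Chemokines had 17 tested, 3 under 0.05, and 0 and 4 called, chemokine receptors 11, 4, 3 and 0, and integrins and adhesion genes 32, 8, 2 and 3. Aminoacyl-tRNA synthetases had 20 tested, 2 under 0.05, and 1 and 0 called, sterol synthesis 28, 4, 1 and 1, and fatty acid and lipid droplet genes 35, 2, 1 and 0. MHC class II and costimulation had 14 tested, 1 under 0.05, and 1 and 1 called, and MHC class I and the immunoproteasome 20, 5, 3 and 3. TGF-beta and activin genes had 34 tested, 3 under 0.05, and 0 and 1 called, and ion channels and pumps 39, 5, 2 and 3.

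Other lists held 1 or 2 called genes. Dtx4, a regulator of Notch, rose from a range of 0 to 6.88 CPM to one of 35.6 to 114 CPM (log2 fold change 4.42 ± 0.96, adjusted p = 0.0273), a call lost without library 3 (adjusted p = 0.0715). Numb, a Notch inhibitor, fell by 1.09 on the log2 scale, a call lost without library 1, 2, 3, 4, 6, 7, 8 or 10 (adjusted p = 0.053 to 0.0997). Lgals3, which encodes galectin-3, fell by 1.24, and Nampt, an enzyme of NAD synthesis, fell by 1.19, calls lost without library 6 (adjusted p = 0.0612) for Lgals3 and without library 1, 2, 3, 4, 6, 7, 8, 9 or 10 (adjusted p = 0.0517 to 0.135) for Nampt. Olr1, a scavenger receptor for oxidised lipoprotein, fell from a range of 124 to 577 CPM to one of 9.10 to 21.1 CPM (log2 fold change -4.26 ± 0.78, adjusted p = 0.0103). Nlrp3, the inflammasome sensor, measured 81.5, 90.9, 45.7, 114 and 19.9 CPM untreated and 7.66, 14.6, 4.52, 6.08 and 7.38 CPM with MC903 (log2 fold change -3.13 ± 0.47, adjusted p = 0.000619). Tsc22d3, the glucocorticoid-induced leucine zipper, fell by 1.11, and Hsd11b1, which makes active glucocorticoid, rose by 3.68. Both overlapped between groups, and the calls were lost without library 1, 2, 4, 5, 6, 7, 8 or 9 (adjusted p = 0.0548 to 0.109) for Tsc22d3 and without library 1, 2, 3, 4, 6, 8 or 9 (adjusted p = 0.0553 to 0.0994) for Hsd11b1. Nr1d2, a clock repressor, fell by 1.79, a call lost without library 1, 4, 6, 7, 8 or 9 (adjusted p = 0.0548 to 0.127), and Plau, urokinase, fell by 1.89.

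**Figure D4:**
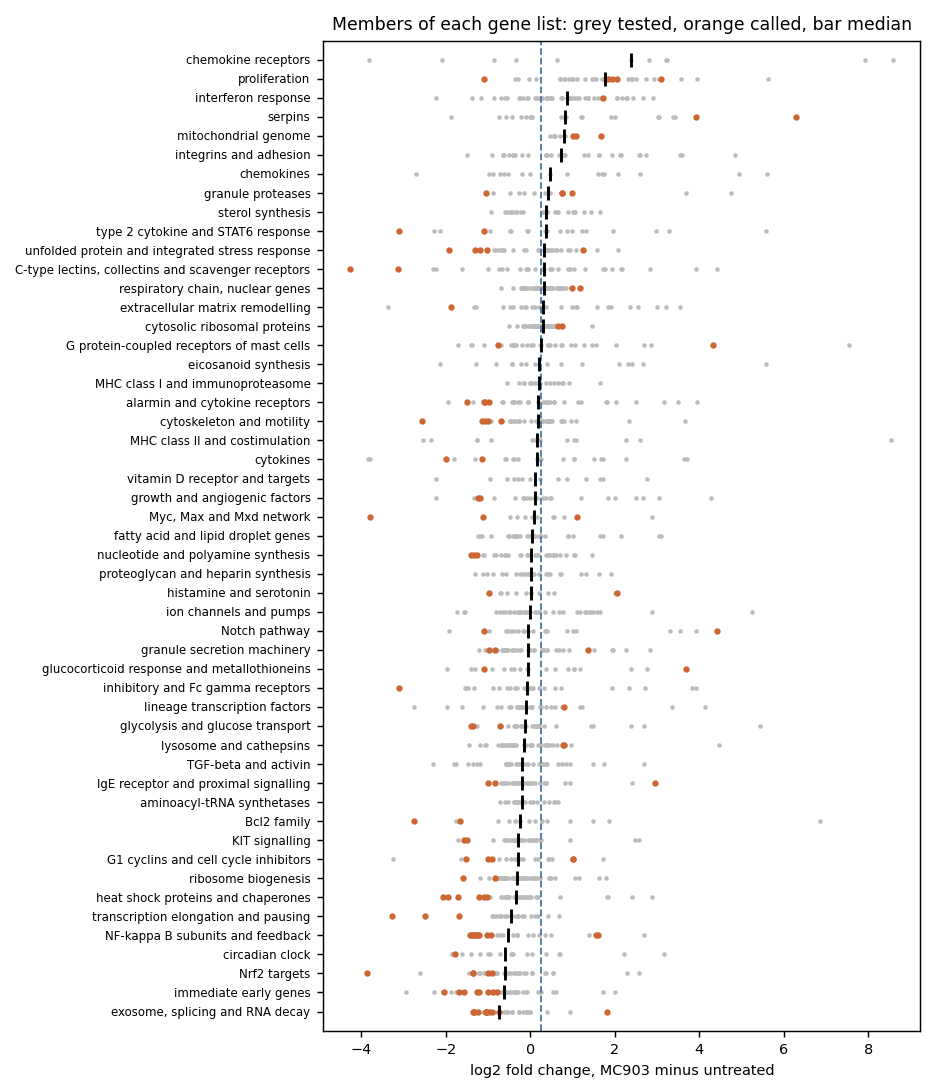
Log2 fold change of every tested member of the 51 pathway lists, with called members in orange, the median of each list as a black bar and the median of all genes (0.24) as a dashed line. The RNA processing, immediate early, Nrf2, clock and NF-kappa B lists have the 5 lowest medians, and chemokine receptors and proliferation the highest.

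The largest differences outside these lists were taken from the 12 highest and 12 lowest fold changes among called genes whose groups did not overlap. P2ry10b, a lysophospholipid receptor family gene, measured 1020.4, 470.0, 761, 683 and 863 CPM untreated and 96.4, 58.9, 69.9, 194 and 144 CPM with MC903 (log2 fold change -2.75 ± 0.30, adjusted p = 1.77e-05). Fam110c went from a range of 547 to 984 CPM to one of 44.9 to 103 CPM and Rcan1, a calcineurin regulator induced by NFAT, from a range of 149 to 397 CPM to one of 14.2 to 98.00 CPM (-3.20 ± 0.62 and -2.87 ± 0.52). Mir155hg, the host transcript of a microRNA of immune activation, fell by 2.96 on the log2 scale. Map2k3os, an antisense transcript annotated beside Map2k3 with no overlap of the spans, fell by 3.25. Trim36, a ubiquitin ligase, fell by 2.88, a call lost without library 1, 4, 6, 7, 9 or 10 (adjusted p = 0.0502 to 0.0827).

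On the higher side, Bzw2, a translation regulator, measured 33.4, 21.2, 50.7, 44.96 and 19.1 CPM untreated and 191, 233, 194, 270.5 and 326 CPM with MC903 (log2 fold change 2.84 ± 0.29, adjusted p = 1.22e-05). Akr1c13 and Akr1c12, aldo-keto reductases that are near-identical copies, rose by 2.61 and 3.36 on the log2 scale, and the dynein genes Dnah7a and Dnah7b, also close copies, by 5.22 and 4.28, so the split within each pair is uncertain. Tnfrsf9, the costimulatory receptor 4-1BB, measured 0.28, 2.46, 0.64, 2.56 and 0.27 CPM untreated and 45.1, 21.2, 16.98, 14.5 and 4.98 CPM with MC903 (log2 fold change 4.04 ± 0.73, adjusted p = 0.00282). Rnase6, an antimicrobial ribonuclease, rose from a range of 0 to 2.44 CPM to one of 11.6 to 40.3 CPM (log2 fold change 5.33 ± 1.25, adjusted p = 0.0282), a call lost without library 5 or 7 (adjusted p = 0.0579 to 0.0671). All of these genes were low or near 0 in the untreated libraries except Akr1c13 and Bzw2. Without libraries 7 and 8 together, the calls lost included those of Olr1 (adjusted p = 0.124), Fam110c (adjusted p = 0.142), Rcan1 (adjusted p = 0.091) and Spink2 (adjusted p = 0.0727). Those of Dtx4 (adjusted p = 0.0785), Dnah7b (adjusted p = 0.0746), Cish (adjusted p = 0.0703), Rnase6 (adjusted p = 0.113) and Trim36 (adjusted p = 0.116) were lost too.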

How the data were processed

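Per the labels' protocols, up to 100 cells per library were sorted, amplified with SMART-Seq HT and made into Nextera XT libraries. The submitters' processing notes name STAR, featureCounts and the mm10 build, without versions, and the strand setting is not given in the sources used here. The deposited table holds raw counts for 55487 genes in 14 libraries. The protocol names no molecular identifiers, so reads are not separate molecules.

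Genes were kept by filterByExpr (minimum count 10, minimum total 15), libraries were scaled by TMM, and 1 edgeR 4.0.16 quasi-likelihood fit over all 14 libraries and 3 groups, the third being 4 libraries labelled as bone marrow mast cells, gave each contrast in R 4.3.3. P-values were adjusted by Benjamini-Hochberg over 21014 genes, with a threshold of 0.05. Standard errors were obtained by dividing the size of each log2 fold change by the root of its F statistic. DESeq2 1.42.0 and limma 3.58.1 were alternatives.

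The members and lists were chosen with earlier results of these data known. The genes named were the 12 highest and 12 lowest fold changes among called genes without overlap whose higher group averaged 20 CPM or more and held 10 or more counts per library, predicted and mitochondrial genes left out. In each list the 4 called members with the largest fold change and the most abundant uncalled member were also taken, 161 genes in all. Other called members of a list are given to complete it and were named after their values were seen. Promoters came from RefSeq (GRCm38.p6), and gene spans from GENCODE M21 on GRCm38, where 55094 identifiers matched with the same coordinates. On simulated data with 50 changed genes per fold size, the fit called 74%, 44%, 72% and 82% of genes changed by -3, -2, 2 and 3 on the log2 scale, with 3 false calls. The changed genes were drawn from those with expected counts well above the filter minimum.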

Additional observations from a re-analysis of the deposited data

Results flagged for a closer look

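In 29 of 322 pairs of a named gene and a group of 5 libraries, 1 library stood far from the other 4, by a gap over 0.71 of the whole range on the log2 scale (Dixon's limit for 5 values). Chance alone gives about 1 in 20 such pairs. Untreated library 5 was the outlying one in 15 of the 29. It was the highest untreated library for Cma1 (37611 CPM against 21700.0 to 24964 CPM), Ms4a2 (2754 CPM against 1664 to 1818 CPM), Ccl7 (34794 CPM against 21391 to 22710.3 CPM), Cd63 (3199.7 CPM against 1979 to 2182 CPM) and Sqstm1 (9860.0 CPM against 7706 to 8172 CPM). It was also the highest for Oaz1 (1234 CPM against 703 to 776 CPM), Ldha (2986 CPM against 1812 to 2082 CPM), H2-DMb1 (36.1 CPM against 23.5 to 26.2 CPM), H2-D1 (3094 CPM against 1873 to 2086 CPM) and Cst3 (369 CPM against 195 to 231 CPM), and for Id2 (1281 CPM against 830.2 to 897 CPM), Serpinb1a (29513 CPM against 18810.5 to 21410.2 CPM) and Pfn1 (1927 CPM against 1172 to 1241 CPM). It was the lowest for Kit (789 CPM against 1723 to 2033 CPM) and Slc2a3 (97.4 CPM against 189.8 to 209.6 CPM). With library 5 left out, 516 genes were called, 403 of them among the 473.

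MC903 library 10 was outlying for 6 genes. It was the lowest for Serpina3g (4.05 CPM against 23.1 to 34.7 CPM), Osm (1128 CPM against 1966 to 2056 CPM) and Utp4 (12.2 CPM against 29.7 to 38.9 CPM), and the highest for Tpsg1 (772 CPM against 575 to 606 CPM), mt-Nd4 (1992 CPM against 912 to 1064 CPM) and Mdm2 (67.2 CPM against 28.7 to 34.5 CPM). MC903 library 7 was the lowest for Fcer1g (1380.4 CPM against 2122 to 2307 CPM) and Bst2 (69.8 CPM against 102 to 114 CPM), library 8 the lowest for Mcm7 (22.4 CPM against 35.4 to 40.6 CPM), and library 9 the highest for Dnajb2 (37.1 CPM against 10.6 to 14.3 CPM). Among the untreated libraries, library 2 was the lowest for Srxn1 (614 CPM against 1149.7 to 1309.9 CPM) and Hexim1 (18.1 CPM against 38.5 to 47.96 CPM), library 3 the lowest for Nfkbib (114 CPM against 185 to 208 CPM), and library 1 the highest for Bhlhe40 (203 CPM against 106 to 124 CPM).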

How the results depend on the processing

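The 473 calls (120 higher, 353 lower) became 1072 with the DESeq2 Wald test (600 higher, 472 lower), 1357 with limma and quality weights (660 higher, 697 lower), 662 with only the 10 resident libraries in the fit (170 higher, 492 lower), 132 when a 1.5-fold minimum was tested (33 higher, 99 lower) and 189 without libraries 7 and 8 (58 higher, 131 lower). Genes called higher numbered 207 with DESeq2 size factors, 251 with TMM from abundant genes, 309 with a filter at a mean of 10 CPM, 190 with a length offset and 182 with no filter. Leaving out 1 library gave 312 to 516 calls, with 83 to 164 higher and 217 to 373 lower. Of the 161 named genes, 55 lost a call without libraries 7 and 8, and up to 32 did so without 1 library. With no filter 12 lost a call, Cma1, Egr1, Dtx4, Bcl3 and Rnase6 among them. The 161 include genes named as uncalled, which had no call to lose. Of all 473 calls, 180 (38.05%) were kept without libraries 7 and 8. The mitochondrial share kept its direction and its side of the threshold with its 13 protein genes alone and without each of the 10 libraries in turn, which were the alternatives run for it. The cause of these shifts was not tested.

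The sign changed for 9 named genes, none of them called. With DESeq2 size factors the values were 0.028 for Cd200r3, 0.062 for Oaz1, 0.072 for Clec10a and 0.023 for P4ha2, and with the DESeq2 Wald test 0.028, 0.062, 0.072 and 0.024. With TMM from abundant genes they were 0.081 for Cd200r3, 0.12 for Oaz1, 0.042 for Nars, 0.12 for Clec10a, 0.041 for Clic1 and 0.081 for P4ha2, and with the filter at 10 CPM 0.083, 0.12, 0.044, 0.12, 0.043 and 0.082. Without libraries 7 and 8 they were 0.041 for Cd200r3, 0.022 for Oaz1, 0.095 for Nars, 0.20 for Clec10a and 0.0063 for P4ha2, and with the length offset 0.045, 0.031, 0.012, 0.034 and 0.033. With limma they were -0.069 for Mxd4 and -0.15 for Bhlhe40. Without 1 library the ranges were Bhlhe40 -0.087 to 0.31, Cd200r3 -0.17 to 0.014, Clec10a -0.092 to 0.077, Ldha -0.0067 to 0.19, Mxd4 -0.064 to 0.19, Oaz1 -0.13 to 0.11 and P4ha2 -0.20 to 0.10. No paired analysis was possible because the labels number libraries in one running series and name no animal. At the present depth and spread, a simulated log2 fold change of -2 was called in 44% of genes, so genes that were not called may differ. The genes changed there had expected counts well above the filter minimum, so that rate does not cover scarce genes.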

Other observations

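Of the 473 called genes 347 were in no list, 260 lower and 87 higher. Those with a mean of at least 1000 CPM in 1 group and no overlap between groups, chosen after the values were seen, numbered 19, of which 17 fell. Plek, which encodes pleckstrin, a substrate of protein kinase C, measured 8418, 5368, 5952, 6335 and 5990.2 CPM untreated and 1191, 1299, 1103, 1576 and 1923 CPM with MC903, a gap with no overlap (edgeR log2 fold change -2.18 ± 0.19, adjusted p = 1.66e-06). Lmna, the nuclear lamin A gene, went from a range of 8211 to 10867 CPM to one of 2093 to 4899.6 CPM (log2 fold change -1.51 ± 0.21, adjusted p = 0.000213). Sla, an adaptor that dampens antigen receptor signalling, went from a range of 1218 to 4243 CPM to one of 563 to 1021 CPM, and Tax1bp1, a partner of A20 and autophagy receptor, from a range of 1505 to 2154 CPM to one of 578 to 756 CPM (-1.92 ± 0.29 and -1.43 ± 0.16 on the log2 scale). Rabgef1, a Rab5 exchange factor that restrains IgE receptor signalling, fell by 1.43, and Rgs2, a regulator of G protein signalling, fell by 0.80, a call lost without library 9 (adjusted p = 0.0509). Ubb, a ubiquitin precursor with close copies, fell by 0.97, a call lost without libraries 7 and 8 together (adjusted p = 0.0814). Of the 2 that rose, Ctla2a, a cathepsin inhibitor with a near-identical copy, measured 131, 155, 227, 199.9 and 228 CPM untreated and 1385, 1103, 780.2, 809 and 1009 CPM with MC903 (log2 fold change 2.43 ± 0.28, adjusted p = 3.8e-05), and the other was the predicted gene Gm26917 (log2 fold change 1.08 ± 0.24), a call lost without library 2 (adjusted p = 0.0502).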
